A study of Mus musculus with 6 samples.

Results

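The target and feedback genes of the canonical Wnt pathway were followed in the forebrain of mice with an inducible Parp1 deletion driven by Pdgfra. They are Axin2, Nkd1, Apcdd1, Rnf43, Znrf3, Notum, Wif1, Lef1 and Sp5, and Daam2, a modulator of the pathway, is counted with them. They were taken by name from the deposited tables, with Ensembl identifiers named by GENCODE M21, and all 10 were found among the 35275 identifiers. RNA was sequenced from the forebrains of 3 conditional knockout mice (cKO) and 3 control littermates at postnatal day 9, on the C57BL/6 strain. The cKO mice were Pdgfra-CreER:Parp1fl/fl, so that a tamoxifen-activated recombinase driven by Pdgfra could delete the floxed Parp1 alleles. Controls were Parp1fl/fl without the recombinase. The sex of each mouse was not used here. Both groups received tamoxifen intraperitoneally on postnatal days 1, 2 and 3. Pdgfra marks oligodendrocyte precursors and is also active in fibroblasts, and a forebrain library holds all cells of the tissue. A lower level in such a library can come from fewer cells of a type or from less RNA per cell, and the data cannot tell these apart.

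Wnt ligands bind Frizzled receptors and Lrp5 or Lrp6, which inactivates the complex that destroys beta-catenin. Beta-catenin then enters the nucleus and drives transcription with the TCF/LEF factors. Many of the genes switched on in this way encode inhibitors of the pathway, so their RNA is often read as a gauge of Wnt activity. In mice, sustained beta-catenin signalling holds oligodendrocyte precursors back from differentiating. The comparison of cKO with control forebrains asks whether these target and feedback genes differ when the Parp1 deletion is induced through Pdgfra.

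Total counts ran from 19934003 to 29310193 in cKO and from 17262042 to 22118915 in control libraries. Parp1 itself was at 79.1 to 80.8 CPM (read counts scaled to library size with TMM factors) in cKO forebrains and 85.6 to 97.3 CPM in control forebrains, without overlap. Its log2 difference of -0.19 did not pass (edgeR adjusted p = 0.572). Without control replicate 3 the difference was -0.24 and did not pass either (edgeR adjusted p = 0.160, unadjusted p = 0.00099). Of 9 midbrain and hindbrain marker genes, Hoxb3, Hoxb5 and Hoxc4 had no count in any of the 6 libraries. Control replicate 3 stood apart on the first principal component, at 35.2 against -12.5 to -2.89 in the other 5 libraries. Of 13 thalamic marker genes 12 were highest in that library, and all 10 striatal marker genes were lowest there. Of the 6 detected midbrain and hindbrain markers, 5 were also highest there. Their summed level was 13.7 CPM in control replicate 3. It was 1.91 and 4.14 CPM in control replicates 1 and 2 and 2.37 to 3.20 CPM in cKO libraries. The summed thalamic level was 354 to 397 CPM in cKO libraries and 731, 376 and 363 CPM in control replicates 3, 1 and 2. None of the 13 thalamic markers was at 0 throughout. Results are therefore given with and without control replicate 3.

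TCF/LEF factors bind a core that was searched here as CTTTGAT or CTTTGAA on either strand. RefSeq promoter windows of 300 bases, from 250 before to 50 after a start site (build GRCm38.p6), were at hand for 7 of the 10 genes, and Sp5 was the 1 gene of these 7 with a match. Over all genes with such a window, 9.89% had a match. The Sp5 window (chr2:70474673-70474972, plus strand) is shown for its single CTTTGAT, in capitals, 104 bases before the start site. The Axin2 window (chr11:108920099-108920398, plus strand) is shown beside it because Axin2 is the most widely used readout of the pathway, and it holds no match. A match is a string of letters and not a measured binding site, and its absence says only that these letters are not in the window.

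Sp5: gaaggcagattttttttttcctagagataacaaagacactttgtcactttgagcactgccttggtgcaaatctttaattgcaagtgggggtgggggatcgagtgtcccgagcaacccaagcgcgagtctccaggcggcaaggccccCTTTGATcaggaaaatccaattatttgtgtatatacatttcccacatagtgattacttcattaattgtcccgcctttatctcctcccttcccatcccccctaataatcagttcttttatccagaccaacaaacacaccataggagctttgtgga

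Axin2: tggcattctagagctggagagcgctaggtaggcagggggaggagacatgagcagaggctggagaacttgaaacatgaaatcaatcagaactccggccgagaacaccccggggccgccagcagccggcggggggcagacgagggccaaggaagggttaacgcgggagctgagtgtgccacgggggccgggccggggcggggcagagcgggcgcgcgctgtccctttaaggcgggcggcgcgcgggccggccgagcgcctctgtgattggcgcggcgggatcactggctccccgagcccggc

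None of the 10 Wnt target and feedback genes passed the test for a difference between cKO and control forebrains. With edgeR's quasi-likelihood test and Benjamini-Hochberg adjustment over 16938 genes, 0 of 10 were called, where 0.266% of all tested genes were (45 genes, or 28 without control replicate 1). The smallest adjusted p of the 10 was 0.846, for Rnf43. At an unadjusted p under 0.05 there were also 0 of 10, against 6.27% of all tested genes. DESeq2 and limma-voom called 0 as well. The cKO and control libraries overlapped for every one of the 10 genes, and 11.9% of all tested genes had groups that did not overlap. With only 10 genes, a count of 0 is near that share and does not set them apart. Groups without overlap are weak evidence for any gene, since the smallest exact two-sided permutation p for 3 against 3 libraries is 0.1. The median log2 fold change was 0.02 over the 10 genes and -0.00068 over all tested genes. Without control replicate 3, 0 of 10 genes were called, against 0.349% of all genes, and 0 of 10 had an unadjusted p under 0.05, against 5.78%. Their median was then 0.03.

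**Figure D1:**
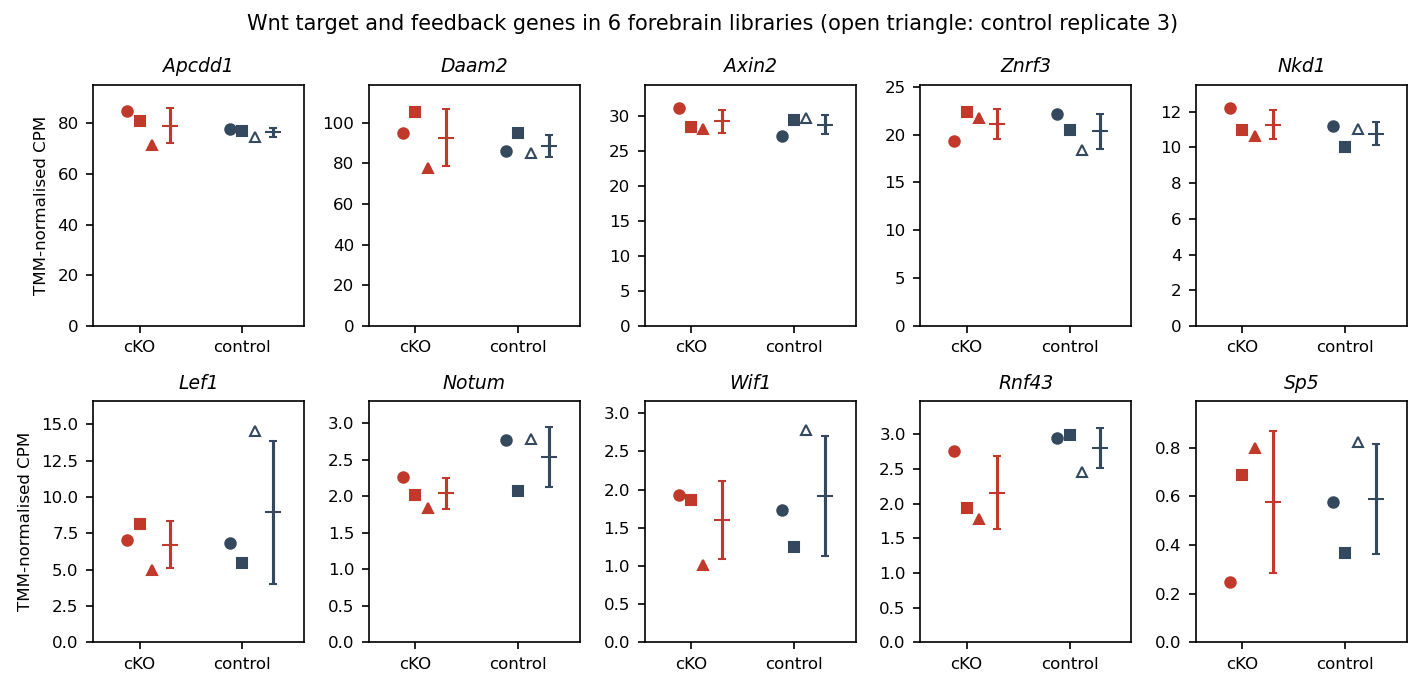
TMM-normalised CPM of each of the 10 genes in the 3 cKO and 3 control libraries (circle, square and triangle for replicates 1, 2 and 3), with the mean and SD of each group beside the points. The groups overlap in every panel, and the open triangle, control replicate 3, is the highest library for Lef1 (14.6 CPM), Wif1 (2.78 CPM), Notum (2.78 CPM) and Sp5 (0.821 CPM), by a narrow margin for Notum and Sp5.

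The 2 intracellular feedback genes varied little between libraries. Axin2 encodes a scaffold of the beta-catenin destruction complex (ENSMUSG00000000142, chromosome 11, 108920349 to 108950783 in mm10). It was at 31.2, 28.5 and 28.2 CPM in cKO replicates 1, 2 and 3 and at 27.2, 29.4 and 29.7 CPM in control replicates 1, 2 and 3. The highest and the lowest library were thus both a replicate 1, with the rest in between. Its means were 29.3 ± 1.65 CPM in cKO forebrains and 28.8 ± 1.38 CPM in control forebrains (SD, n = 3 mice each), a fold of 1.02 with a 95% confidence interval from 0.897 to 1.15 (edgeR adjusted p = 0.975). The interval leaves out a rise of more than 1.15-fold over the whole forebrain. Over the 6 libraries the coefficient of variation of Axin2 was 4.77%, the lowest of the 10 genes. Without control replicate 3 the log2 fold change was 0.04 (interval -0.15 to 0.23).

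Nkd1, which binds Dishevelled and dampens the signal (ENSMUSG00000031661, chromosome 8, 88521354 to 88594884), was at 12.2, 10.98 and 10.6 CPM in cKO forebrains and at 11.2, 10.03 and 11.04 CPM in control forebrains. The ranges overlapped, with cKO replicate 1 above all controls and control replicate 2 below all cKO libraries. Its fold was 1.05, with an interval from 0.877 to 1.25 (edgeR adjusted p = 0.947), and its log2 fold change without control replicate 3 was 0.08. Exons of Axin2 overlap the opposite-strand gene Gm11670 by 209 bp, and the strand setting of the counting is not given, so a part of its reads could belong to that gene.

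Apcdd1, Znrf3 and Rnf43 act at the cell membrane. Apcdd1 encodes a membrane-bound inhibitor that binds Wnt and Lrp proteins (ENSMUSG00000071847, chromosome 18, 62922231 to 62961179). It was at 84.7, 80.9 and 71.4 CPM in cKO forebrains and at 77.7, 76.7 and 74.5 CPM in control forebrains. The cKO libraries spread to both sides of the controls. The means were 79.0 ± 6.84 CPM in cKO forebrains and 76.3 ± 1.65 CPM in control forebrains (SD, n = 3 mice each), a fold of 1.03 with an interval from 0.929 to 1.15 (edgeR adjusted p = 0.938). With control replicate 3 left out the log2 fold change was 0.03 (interval -0.13 to 0.18).

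Rnf43 and Znrf3 encode related membrane ubiquitin ligases that remove Frizzled receptors from the cell surface. Znrf3 (ENSMUSG00000041961, chromosome 11, 5276324 to 5444847) was at 19.3, 22.4 and 21.7 CPM in cKO forebrains and at 22.1, 20.5 and 18.4 CPM in control forebrains. Both groups covered nearly the same range, with a log2 fold change of 0.06 (95% interval -0.16 to 0.28, edgeR adjusted p = 0.946) and of -0.012 without control replicate 3. Rnf43 (ENSMUSG00000034177, chromosome 11, 87662722 to 87735539) was at 2.76, 1.94 and 1.77 CPM in cKO forebrains and at 2.94, 2.99 and 2.46 CPM in control forebrains. Among the cKO libraries replicates 2 and 3 lay below all controls, while cKO replicate 1 lay above control replicate 3. Its log2 fold change was -0.39 (95% interval -0.91 to 0.14, edgeR adjusted p = 0.846). Without control replicate 3 the value was -0.48 (interval -1.04 to 0.07, adjusted p = 0.941), and the 3 cKO libraries then all lay below both controls. Rnf43 rested on 48 to 65 reads per library.

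Of the secreted inhibitors, Notum is an enzyme that strips the lipid from Wnt ligands (ENSMUSG00000042988, chromosome 11, 120653788 to 120661175). Notum was at 2.27, 2.02 and 1.84 CPM in cKO forebrains and at 2.77, 2.07 and 2.78 CPM in control forebrains, on 45 to 61 reads per library. Control replicate 2 lay among the cKO libraries and the other 2 controls lay above them. The log2 fold change was -0.32 (95% interval -0.82 to 0.19, edgeR adjusted p = 0.863), and -0.25 without control replicate 3. Exons of Notum overlap the opposite-strand genes Notumos and Myadml2os by 918 bp in all, which makes its count less certain.

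Wif1 encodes a secreted protein that binds Wnt ligands (ENSMUSG00000020218, chromosome 10, 121033960 to 121100650). It was at 1.92, 1.86 and 1.01 CPM in cKO forebrains and at 1.73, 1.24 and 2.78 CPM in control forebrains. The highest value was that of control replicate 3. With all libraries the log2 fold change was -0.29 (95% interval -1.05 to 0.47, edgeR adjusted p = 0.921), and without control replicate 3 it was 0.09 (interval -0.65 to 0.83, adjusted p = 0.999).

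The transcription factors of the group were Lef1, which binds beta-catenin and is itself a target, and Sp5, a zinc-finger factor that the pathway induces. Lef1 (ENSMUSG00000027985, chromosome 3, 131110471 to 131224356) was at 7.005, 8.16 and 4.97 CPM in cKO forebrains and at 6.81, 5.47 and 14.6 CPM in control forebrains. Control replicate 3 was 2.14 times the median of the other 5 libraries, and no other of the 10 genes was as far from the median there. The log2 fold change was -0.43 over all libraries (95% interval -1.43 to 0.58, edgeR adjusted p = 0.903) and turned to 0.12 without control replicate 3 (interval -0.31 to 0.56, adjusted p = 0.996). The coefficient of variation of Lef1 was 44.5% over 6 libraries and 19.6% over the 5. Exons of Lef1 overlap the opposite-strand gene Gm43352 by 1208 bp.

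Sp5 (ENSMUSG00000075304, chromosome 2, 70474923 to 70477729) was close to the lower limit of the counts, with 5, 17 and 23 reads in cKO forebrains and 10, 8 and 18 reads in controls. In CPM this came to 0.247, 0.686 and 0.800 in cKO forebrains and 0.577, 0.368 and 0.821 in controls. The groups spanned nearly the same range, and the interval of the log2 fold change (-1.03 to 1.06 around 0.01, edgeR adjusted p = 0.997) admits a change of 2-fold in either direction. Without control replicate 3 the value was 0.35 (interval -0.82 to 1.52).

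Daam2 encodes a formin that binds Dishevelled, and in mice it raises Wnt signalling in oligodendrocyte precursors and slows their differentiation. It lies on chromosome 17 (ENSMUSG00000040260, 49456022 to 49564343). Daam2 was at 95.1, 105 and 77.8 CPM in cKO forebrains and at 86.3, 95.004 and 84.96 CPM in control forebrains. Controls lay inside the span of the cKO libraries. The means were 92.7 ± 13.9 CPM in cKO forebrains and 88.7 ± 5.46 CPM in control forebrains (SD, n = 3 mice each), a fold of 1.04 with an interval from 0.894 to 1.22 (edgeR adjusted p = 0.944). Leaving out control replicate 3 gave a log2 fold change of 0.02 (interval -0.26 to 0.31).

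**Figure D2:**
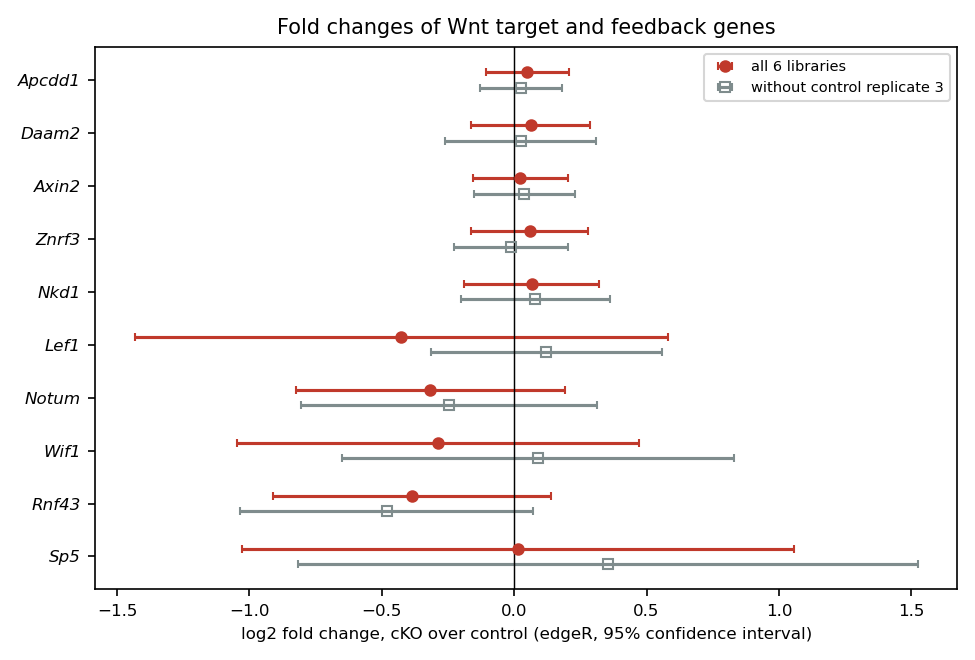
Log2 fold change of cKO over control with its 95% confidence interval from edgeR, for all 6 libraries (filled circles) and without control replicate 3 (open squares), with genes in order of level. Every interval includes 0. Intervals are narrow for Apcdd1, Daam2, Axin2, Znrf3 and Nkd1 and wide for the 5 genes below them, and the point for Lef1 moves from -0.43 to 0.12 when control replicate 3 is left out.

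Levels of the 10 genes were compared on the deposited FPKM scale, which divides by gene length, and covered a wide range. Apcdd1 had the highest level, at 28.2 ± 2.91 FPKM in cKO forebrains and 27.3 ± 0.804 FPKM in control forebrains (SD, n = 3 mice each). Daam2 came next at 15.3 ± 2.42 FPKM in cKO forebrains and 14.7 ± 1.02 FPKM in control forebrains, followed by Axin2 at 6.86 ± 0.511 FPKM in cKO forebrains and 6.76 ± 0.310 FPKM in control forebrains. Znrf3, with a mean over all libraries of 3.28 FPKM, lay above Nkd1 at 2.55 FPKM in all 6 libraries. The 4 highest genes did not overlap with the next gene in the order.

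Nkd1 and Lef1 (mean 2.14 FPKM) did overlap, since Lef1 reached 3.94 FPKM in control replicate 3. The ranges of Notum (1.04 FPKM), Wif1 (0.766 FPKM) and Rnf43 (0.576 FPKM) overlapped in turn, although Notum lay above Wif1 in all 6 libraries and Wif1 above Rnf43 in 5 of 6. Sp5 was lowest at 0.276 FPKM, below every library of Rnf43.

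**Figure D3:**
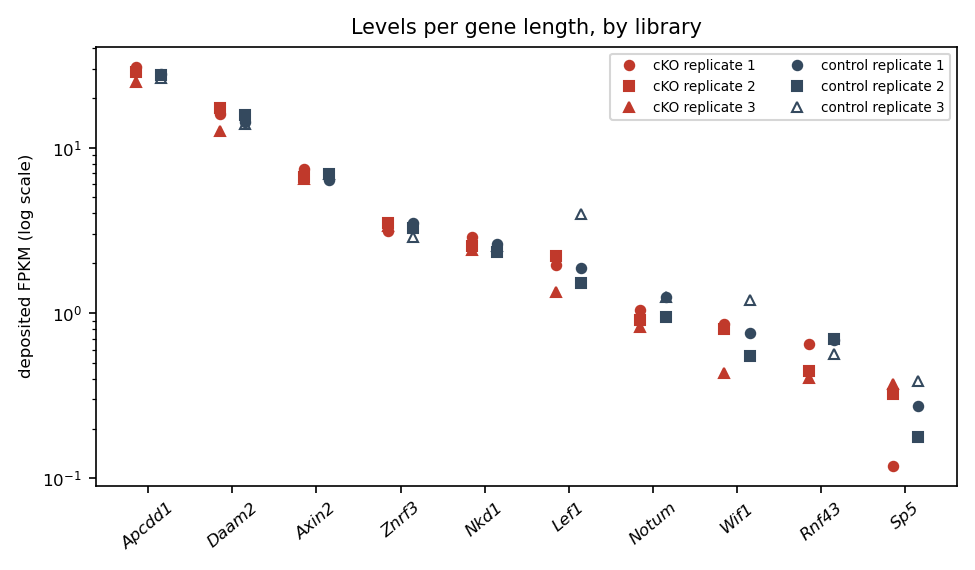
Deposited FPKM of the 10 genes in each library on a log axis, in falling order of the mean. The order runs from Apcdd1 at 27.7 FPKM to Sp5 at 0.276 FPKM, and the 6 libraries of a gene lie close together for the 5 highest genes.

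Lef1 and Wif1 placed the libraries in nearly the same order. Both were highest in control replicate 3 and lowest in cKO replicate 3, with control replicate 1 above control replicate 2, and only cKO replicates 1 and 2 changed places. In control replicate 3 the level of thalamic markers was also higher than in the other libraries. Slc17a6, a glutamate transporter of thalamic neurons, was at 56.7, 63.5 and 43.7 CPM in cKO forebrains and at 66.2, 51.1 and 174 CPM in control forebrains. The part of the thalamic markers in the Lef1 and Wif1 values was not tested.

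Tcf7l2, the TCF factor that is abundant in the thalamus and also made by oligodendrocytes, was at 33.4, 36.1 and 29.4 CPM in cKO forebrains and at 34.0, 28.9 and 144 CPM in control forebrains. Its log2 fold change was -1.07 over all libraries and 0.06 without control replicate 3 (edgeR adjusted p = 0.879 and 0.996). Of the 90 tested Wnt pathway genes outside the 10, 8 were more than 1.5-fold above every other library in control replicate 3, a share of 8.89%, where 254 of all 16938 tested genes were. They were Wnt3, Wnt4, Wnt9b, Fzd1, Fzd10, Sfrp4, Nkd2 and Tcf7l2. No pathway gene (0) was as far below every other library there, against 3.08% of all tested genes.

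**Figure D4:**
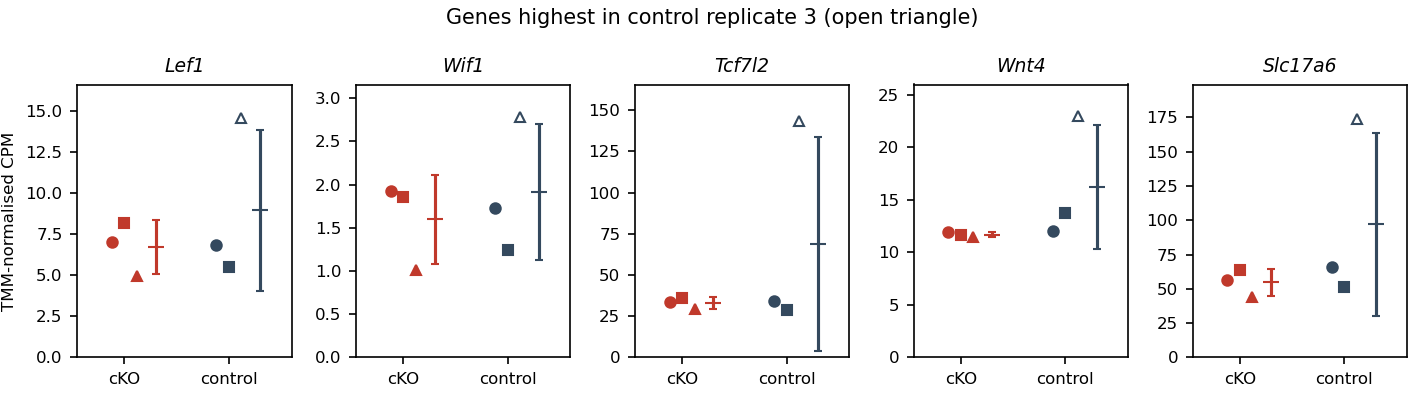
TMM-normalised CPM of Lef1, Wif1, Tcf7l2, the ligand gene Wnt4 and the thalamic neuron gene Slc17a6 in the 3 cKO and 3 control libraries, with the mean and SD of each group. Control replicate 3 (open triangle) is the highest library in each panel, at 144 CPM for Tcf7l2 against 28.9 to 36.1 CPM in the others.

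The rest of the pathway was read by role, in lists that hold 99 further genes, of which 90 had enough reads to be tested. None was called by edgeR (0 of 90, smallest adjusted p = 0.392), and 3 had an unadjusted p under 0.05, a number to be read against 6.27% of all tested genes. DESeq2 and limma-voom also called 0. Without control replicate 3 there were again 0 of 90 called, and 5 with an unadjusted p under 0.05, namely Ccnd1, Id2, Tnfrsf19, Dkk3 and Pygo1. The groups did not overlap for 7.78% of the 90, against 11.9% of all tested genes. The median log2 fold change was -0.0091 over the 90 genes.

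Among 16 tested genes for ligands and their processing, the 3 with the smallest p were Wnt9b, Wnt4 and Wnt9a. Wnt4 was at 11.9, 11.6 and 11.4 CPM in cKO forebrains and at 12.1, 13.7 and 23.0 CPM in control forebrains, without overlap. Its log2 fold change was -0.48 (edgeR adjusted p = 0.816), and -0.15 without control replicate 3. Wnt9b had -1.36 over all libraries and -0.35 without control replicate 3, and Wnt9a had 0.25 and 0.14.

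Of 17 tested receptors and co-receptors, Fzd5, Lrp5 and Fzd10 had the smallest p, with log2 fold changes of -0.38, 0.17 and -0.50. Lrp5, a co-receptor for Wnt, was at 16.7 ± 1.12 CPM in cKO forebrains and 14.9 ± 1.14 CPM in control forebrains (SD, n = 3 mice each, edgeR adjusted p = 0.846). The Frizzled genes Fzd5 and Fzd10 had -0.10 and -0.03 without control replicate 3, and Lrp5 had 0.11. Exons of Fzd5 overlap the opposite-strand gene Gm38058 by 1233 bp. All 6 tested R-spondin and Lgr genes, whose products protect Frizzled receptors from Rnf43 and Znrf3, had negative values, from -0.20 to -0.07. The median of these 6 was -0.13 over all libraries and 0.01 without control replicate 3. Lgr4, Rspo2 and Lgr5 had the smallest p of these, with adjusted p from 0.893 to 0.937.

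Among 11 tested further secreted inhibitors and Kremen genes, Dkk3, Draxin and Sfrp5 had the smallest p. Draxin, a secreted protein that antagonises Wnt and guides axons, was at 15.1, 16.3 and 13.1 CPM in cKO forebrains and at 16.6, 17.1 and 16.97 CPM in control forebrains. Its groups did not overlap, yet the log2 fold change of -0.19 did not pass (edgeR adjusted p = 0.837). Dkk3, a divergent Dickkopf family member, was at 105 ± 11.5 CPM in cKO forebrains and 94.6 ± 4.23 CPM in control forebrains (n = 3 mice each, SD), with a log2 difference of 0.16. Sfrp5 rested on 7 to 28 reads per library and had 0.67. The values of Dkk3, Draxin and Sfrp5 without control replicate 3 were 0.19, -0.19 and 0.68.

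Components of the destruction complex, Dishevelled and their partners had values from -0.25 to 0.14 over 18 tested genes. Dvl2, Tnks and Nkd2 had the smallest p, with log2 fold changes of 0.14, -0.21 and -0.25. Tnks encodes tankyrase, a member of the PARP family that marks Axin proteins for degradation, and was at 97.7 ± 4.18 CPM in cKO forebrains and 113 ± 21.4 CPM in control forebrains (SD, n = 3 mice each, edgeR adjusted p = 0.839). The value of Tnks was -0.06 and that of Nkd2 0.0079 without control replicate 3, and Dvl2 then had 0.10. Exons of Dvl2 overlap the opposite-strand gene Acadvl by 1151 bp, and those of Tnks overlap Gm9939 by 635 bp.

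Among 14 TCF factors and nuclear co-factors, Pygo1 and Ctnnbip1 had an unadjusted p under 0.05 and groups that did not overlap. Pygo1 encodes a co-activator of beta-catenin. It was at 48.8, 52.9 and 53.5 CPM in cKO forebrains and at 56.3, 60.3 and 59.9 CPM in control forebrains, with a log2 difference of -0.19 (adjusted p = 0.649 by edgeR). Ctnnbip1 encodes an inhibitor that keeps beta-catenin from TCF factors and differed by -0.19 on the log2 scale (adjusted p = 0.714 by edgeR), and -0.14 without control replicate 3. Its exons overlap the opposite-strand gene Gm13066 by 720 bp, which makes its count less certain. The co-repressor Tle1 had 0.14. Leaving out control replicate 3 gave -0.18 for Pygo1 and 0.07 for Tle1.

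Of 8 other Wnt targets, Ccnd1 had the smallest p. It encodes cyclin D1 and is induced by many mitogens besides Wnt. Ccnd1 was at 34.6, 33.5 and 24.2 CPM in cKO forebrains and at 22.4, 23.0 and 23.2 CPM in control forebrains. All cKO libraries lay above the controls, cKO replicate 3 by the least. The log2 fold change was 0.43 (95% interval 0.16 to 0.70, edgeR adjusted p = 0.392), and without cKO replicate 3 it was 0.57 and was called (adjusted p = 0.0245). Over all alternatives its adjusted p ran from 0.0245 to 0.9999, the highest without cKO replicate 2. Exons of Ccnd1 overlap the opposite-strand gene LTO1 by 1100 bp. Id2 and Tnfrsf19 had the next smallest p, with -0.12 and -0.11. The values of Ccnd1, Id2 and Tnfrsf19 without control replicate 3 were 0.43, -0.13 and -0.17.

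**Figure D5:**
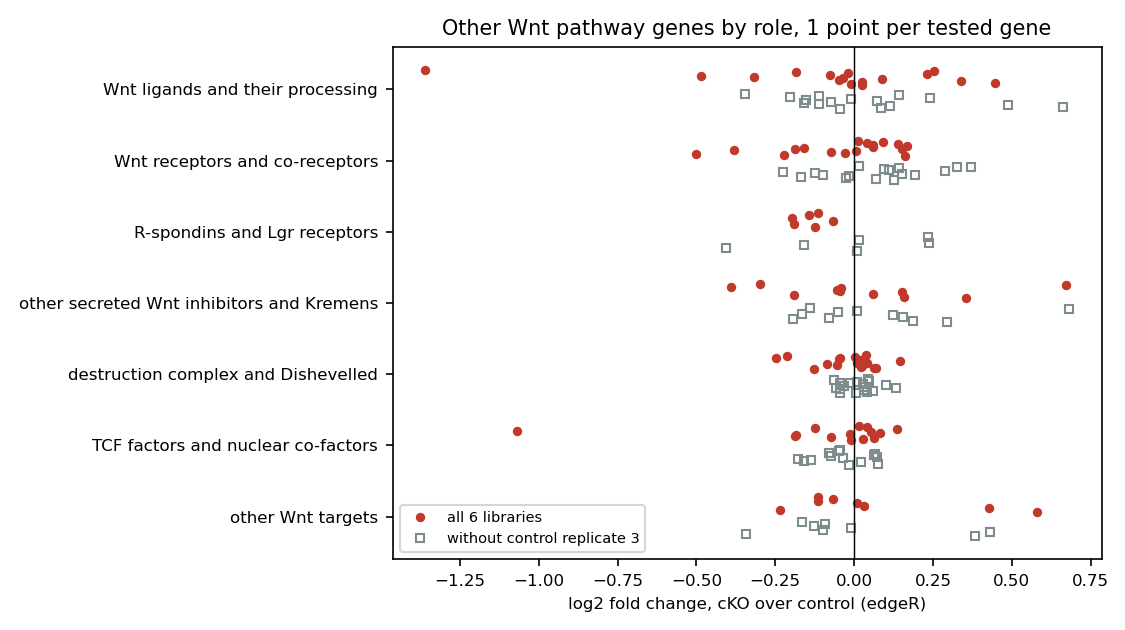
Log2 fold change of cKO over control (edgeR) for the 90 tested Wnt pathway genes outside the 10, by role, for all 6 libraries (filled circles) and without control replicate 3 (open squares). No gene was called in either set, and the lone point at -1.07 among the TCF factors is Tcf7l2, which lies at 0.06 without control replicate 3.

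Markers of the oligodendrocyte lineage in the same fit are given for scale. Their lists were chosen with earlier results of these data known, so the share called is a description only. By edgeR's adjusted p, 5 of 9 tested precursor markers and 10 of 12 markers of new and myelinating oligodendrocytes were called lower in cKO, where 0.266% of all tested genes were called in either direction. All 9 precursor markers and all 12 later markers had negative values, although the highest of the later list was only -0.0039. The groups did not overlap for 9 and 10 of them, against 11.9% of all tested genes. Mog, a myelin gene, was at 8.14, 7.71 and 7.37 CPM in cKO forebrains and at 5.77, 8.33 and 9.03 CPM in control forebrains. Without control replicate 3 the calls were 5 and 9, and the highest value of the later list was 0.11. Sox10, a factor that oligodendrocytes need, was at 16.8, 17.1 and 16.5 CPM in cKO forebrains and at 47.6, 41.7 and 44.8 CPM in control forebrains. Its log2 fold change was -1.41, with a 95% interval from -1.59 to -1.23 (edgeR adjusted p = 3.06e-06). Of the most abundant markers, the myelin genes Mbp and Cnp had log2 fold changes of -1.26 and -0.52 (edgeR adjusted p = 0.000223 and 0.0452), and the precursor genes Olig1 and Cacng4 had -0.58 and -0.22 (adjusted p = 0.268 and 0.433). The interval for Axin2 ran from -0.16 to 0.20 and that for Apcdd1 from -0.11 to 0.21 beside it. The summed level of the precursor markers was 409 to 499 CPM in cKO forebrains and 738 to 776 CPM in control forebrains. That of the 10 Wnt genes was 220 to 263 CPM in cKO forebrains and 239 to 244 CPM in control forebrains. Apcdd1 (71.4 to 84.7 CPM over the 6 libraries) and Daam2 (77.8 to 105 CPM) made up most of the Wnt sum, which says little about the other genes.

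Marker lists of other cells that make these genes were set beside them. The 10 astrocyte markers summed to 4079 to 4410 CPM in cKO forebrains and 3957 to 4277 CPM in control forebrains, and 0 of 10 were called. The 10 endothelial markers summed to 454 to 523 CPM in cKO forebrains and 459 to 467 CPM in control forebrains, and 0 of 10 were called. Neither list had a gene (0) at an unadjusted p under 0.05 by edgeR. Without control replicate 3 the astrocyte list had 1 and the endothelial list 0. The 8 fibroblast and meningeal markers summed to 225 to 372 CPM in cKO forebrains and 236 to 297 CPM in control forebrains. By edgeR 0 of 8 were called (smallest adjusted p = 0.278). An unadjusted p under 0.05 was found for 3 of 8, against 6.27% of all tested genes. All 8 had positive log2 fold changes, up to 1.11, and up to 1.48 without control replicate 3. The most abundant markers of these lists had log2 fold changes of 0.16 for Gfap and 0.03 for Aldoc (astrocytes), 0.11 for Cldn5 and -0.05 for Slc7a5 (endothelium), and 0.13 for Igf2 and 0.39 for Col1a2 (fibroblasts), with edgeR adjusted p from 0.862 to 0.969 for all 6. Gfap was at 856, 781 and 736 CPM in cKO forebrains and at 778, 802 and 551 CPM in control forebrains, lowest in control replicate 3. Of the 10 astrocyte markers 5 had positive and 5 negative values. Median log2 fold changes of the astrocyte, endothelial and fibroblast lists were -0.026, 0.084 and 0.27. Without control replicate 3 these medians were 0.0058, 0.074 and 0.40. The part of these cells in the values of the 10 Wnt genes was not tested. Apcdd1, Lef1 and Axin2 are also made by brain endothelium in mice, so that a whole-forebrain level does not give the level in cells where Pdgfra is active.

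For the 3 of the 10 genes with the smallest p, the tested genes whose log2 CPM followed them most closely over the 6 libraries were looked up among 15240 genes. For Lef1 they were Mdga2, Zfhx4 and Dach2, with Pearson's r from 0.993 to 0.997, and from 0.981 to 0.993 without control replicate 3. For Rnf43 they were Rfx2, Vps8 and Psmg2 (r from 0.984 to 0.988), and for Notum they were Gm20604, Rarres2 and Slx4ip (r from 0.989 to 0.994). These are the closest of many genes over 6 points that share the 2 groups and the library differences, and they are given as a description only.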

How the data were processed

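The labels' protocols name poly-T selection of mRNA and a directional library kit. Each deposited count is a whole number of reads for 1 Ensembl identifier. The submitters' processing notes list STAR 2.5, HTSeq 0.6.1, CASAVA, DESeq and the build mm10 with no role for each. No source used here states the annotation release or whether counting used strand. The deposited FPKM values equalled the deposited count divided by 1 whole length per gene and by the library total in 100% of values (tolerance 0.05 bp), so they are the same measurement on another scale. Of 35275 identifiers, 34490 had a GENCODE M21 name.

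Counts were filtered with filterByExpr (minimum count 10, minimum total 15), scaled by TMM and tested with edgeR 4.0.16 in R 4.3.3 (robust quasi-likelihood, two-sided, 3 against 3 mice). Benjamini-Hochberg adjustment covered every tested gene, with calls under 0.05. All pairs of libraries differed by more than sampling noise (chi-square per degree of freedom 4.09 to 22.0). Alternatives used other scaling factors, other filters, DESeq2 1.42.0, limma 3.58.1 on voom weights or on FPKM (pseudocounts 1 and 0.1), a replicate block, and each library left out. The test was checked on simulated data with known fold changes.

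The genes and lists were chosen with earlier results of these data known. All 10 genes were named, with the 3 smallest-p genes of each role list, the 2 most abundant markers of the cell lists set beside them, and the 3 genes most alike to 3 of them. Other genes were named after their values were seen.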

Additional observations from a re-analysis of the deposited data

How the results depend on the processing

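Calls of the 10 Wnt genes did not depend on the processing: in 167 combinations of a gene and an alternative, 0 were called and the lowest adjusted p was 0.568, for Rnf43 by limma-voom, whose unadjusted p was 0.0334. In 152 of them the direction was that of the reported value. Direction turned in 15, all for values near 0 or for Lef1 and Wif1. Lef1 and Wif1 were at 0.075 and 0.072 by limma-voom. Sp5 was at -0.012 by DESeq2, at -0.015 with the replicate block and at -0.066 on log2(FPKM + 0.1) without a filter. With each library left out in turn, Lef1 ran from -0.69 to 0.12, Sp5 from -0.30 to 0.35, Wif1 from -0.53 to 0.090, Axin2 from -0.023 to 0.046, Apcdd1 from -0.0027 to 0.11, Znrf3 from -0.012 to 0.12 and Daam2 from -0.045 to 0.17. Rnf43 ran from -0.59 to -0.26, Notum from -0.45 to -0.25 and Nkd1 from 0.0084 to 0.10, and these genes kept their direction in every alternative. The -0.59 of Rnf43, without cKO replicate 1, had an unadjusted edgeR p of 0.0394 (adjusted p = 0.833). Over all genes, 45 were called, 111 without a filter (50 higher and 61 lower), 108 by DESeq2 (49 and 59), 24 on each filtered FPKM scale, 23 on unfiltered FPKM, and 28 to 60 with a library left out. Without a filter 25861 genes were tested, on counts as on FPKM, and 25853 genes had a test result by DESeq2. The causes of the different numbers of calls were not tested. Of the other Wnt pathway genes 0 to 1 were called with a library left out, the 1 being Ccnd1. Sp5 had no value on filtered FPKM or with a mean of at least 1 CPM. Same-numbered cKO and control libraries did not deviate together (correlations -0.011, -0.058 and -0.0082), and the replicate block gave 32 calls over all genes and 0 among the 10. Sp5, Rnf43, Notum and Wif1 rested on 5 to 65 reads per library.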
